A study of Rattus norvegicus with 15 samples.

Results

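The inducible MAP kinase phosphatases Dusp1, Dusp4, Dusp5 and Dusp6 were followed in RNA from the nucleus accumbens, the ventral striatal region of the brain studied for its part in drug seeking. They were taken by gene symbol. Each of the 4 had exactly 1 probe set with a single gene symbol, and all 4 were among the 11778 genes tested, of 14497 genes with such a probe set. The values are log2 expression values made by the authors with RMA, which puts the arrays on a common scale, so a difference of 1 is a doubling.

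Male Sprague-Dawley rats self-administered cocaine or saline through a jugular catheter for 6 hours a day over 10 days, and there were 15 arrays in 5 groups of 3. The 30C rats had cocaine, 30 days of withdrawal and an extinction test that assessed cue-induced cocaine seeking. The 30W rats had cocaine and 30 days of withdrawal without the test. The 1C rats had cocaine, 1 day of withdrawal and the test, and the 1W rats had cocaine and 1 day of withdrawal without it. The Sal rats self-administered saline under the same conditions, and the labels give neither a withdrawal time nor a test for them. The labels do not give the rats' age, the time between the test and the dissection, or whether an array held RNA of 1 rat or of several.

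MAP kinase phosphatases are dual-specificity enzymes that remove the phosphates from both the threonine and the tyrosine of the activation loop of a MAP kinase, and so switch the kinase off. Many of their genes are themselves induced by MAP kinase signalling, which makes them part of a negative feedback loop. In the striatum, cocaine and dopamine D1 receptor stimulation are known to activate the kinase ERK and the immediate early genes that follow it.

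Upstream sequence is shown for the members with a RefSeq window, because the immediate early genes that these phosphatases are compared with below are classically driven by CREB and by serum response factor. A promoter window was matched for 3 of the 4 members. The genes lie at chr10:17184853-17187646 (Dusp1), chr16:64079893-64101396 (Dusp4), chr1:262543774-262557201 (Dusp5) and chr7:35979502-35983834 (Dusp6) in RefSeq assembly GRCr8. Each stretch ends at the base before the annotated gene start and lies on the plus strand, at chr10:17184603-17184852 for Dusp1, chr1:262543524-262543773 for Dusp5 and chr7:35979354-35979501 for Dusp6. Capitals mark matches to the cAMP response element TGACGTCA, to its core TGACG, which is also contained in the full element, and to the CArG box bound by serum response factor, searched on both strands.
Dusp1: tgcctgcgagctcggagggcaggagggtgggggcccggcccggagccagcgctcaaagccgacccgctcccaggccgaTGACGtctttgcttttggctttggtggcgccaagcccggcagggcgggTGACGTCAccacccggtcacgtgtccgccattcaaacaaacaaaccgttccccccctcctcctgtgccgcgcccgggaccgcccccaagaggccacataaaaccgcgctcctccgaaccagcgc
Dusp5: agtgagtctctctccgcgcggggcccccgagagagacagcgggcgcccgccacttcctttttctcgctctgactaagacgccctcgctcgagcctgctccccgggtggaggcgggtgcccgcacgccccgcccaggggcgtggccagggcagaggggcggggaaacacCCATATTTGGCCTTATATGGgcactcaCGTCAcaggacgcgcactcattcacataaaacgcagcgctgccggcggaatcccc
Dusp6: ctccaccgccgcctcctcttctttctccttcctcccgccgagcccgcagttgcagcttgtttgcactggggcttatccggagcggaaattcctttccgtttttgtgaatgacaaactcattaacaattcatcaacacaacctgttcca
The Dusp1 stretch held a full cAMP response element 124 to 117 bases before the start and a further core 172 to 168 bases before it. The Dusp5 stretch held a pair of adjoining CArG boxes, 82 to 73 and 72 to 63 bases before the start, and a core on the reverse strand 55 to 51 bases before it. No match lay in the 148 bases shown for Dusp6. The RefSeq window of Dusp6 ran past the annotated gene start, so only its bases before the start are shown. Of 33469 RefSeq windows, searched over their first 250 bases, 1.59% held the full element and 18.2% the core. A CArG box was held by 1.5% and at least 2 by 0.0209%. Such windows need not lie wholly before an annotated start. These matches describe letters and are not shown to be bound sites.

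Dusp1 (MKP-1) is a nuclear phosphatase and an immediate early gene that acts on JNK, p38 and ERK. It read 10.68, 10.04 and 10.14 on the 30C arrays, against 9.91, 9.57 and 9.84 on the 30W arrays. It read 9.50, 10.09 and 9.96 on the 1C arrays, against 9.58, 9.61 and 9.59 on the 1W arrays. On the Sal arrays it read 9.45, 9.80 and 10.10. All 3 of the 30C arrays were above all 3 of the 30W arrays, while the 1C and Sal arrays reached into the 30C range. The 1W arrays were nearly identical, with 9.59 ± 0.01, against 9.79 ± 0.32 in Sal (SD, n = 3 each). In order of group mean, 30C at 10.29 ± 0.35 was followed by 1C at 9.85 ± 0.31, Sal, 30W at 9.77 ± 0.18 and 1W, and every neighbouring pair in that order overlapped.

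Dusp4 (MKP-2) is also nuclear and inducible and acts on ERK and JNK. It read 8.12, 8.04 and 7.96 on the 30C arrays, against 7.72, 7.45 and 7.75 on the 30W arrays. It read 7.86, 7.93 and 7.58 on the 1C arrays, against 7.74, 7.82 and 7.56 on the 1W arrays. On the Sal arrays it read 7.52, 7.70 and 8.00. The 30C arrays stood above all arrays of the other cocaine groups, and Sal replicate 3 fell between 30C replicates 2 and 3. The 30C mean of 8.04 ± 0.08 was followed by 1C at 7.79 ± 0.18, Sal at 7.74 ± 0.24, 1W at 7.71 ± 0.13 and 30W at 7.64 ± 0.16 (SD, n = 3 each). Below 30C every neighbouring pair in that order overlapped.

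Dusp5 is a nuclear phosphatase specific for ERK. It read 7.87, 7.81 and 7.70 on the 30C arrays, against 7.69, 7.72 and 7.51 on the 30W arrays. It read 7.51, 7.52 and 7.64 on the 1C arrays, against 7.36, 7.55 and 7.55 on the 1W arrays. On the Sal arrays it read 7.49, 7.54 and 7.55. The 30C arrays lay above every 1C, 1W and Sal array, and the lowest of them fell below the highest 30W array. The group means were 7.79 ± 0.09 in 30C, 7.64 ± 0.11 in 30W, 7.56 ± 0.07 in 1C, 7.49 ± 0.11 in 1W and 7.53 ± 0.03 in Sal (SD, n = 3 each). In descending order of 30C, 30W, 1C, Sal and 1W, every neighbouring pair overlapped.

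Dusp6 (MKP-3) is a cytosolic phosphatase specific for ERK. It read 9.09, 8.08 and 7.93 on the 30C arrays, against 8.02, 7.69 and 8.05 on the 30W arrays. It read 7.59, 8.14 and 8.02 on the 1C arrays, against 8.11, 7.98 and 7.91 on the 1W arrays. On the Sal arrays it read 7.49, 8.15 and 8.27. One array, 30C replicate 1, stood apart, and the other two 30C arrays lay within the range of the remaining groups. The group means were 8.37 ± 0.63 in 30C, 7.92 ± 0.20 in 30W, 7.92 ± 0.29 in 1C, 8.00 ± 0.10 in 1W and 7.97 ± 0.42 in Sal (SD, n = 3 each), with every neighbouring pair in their order overlapping.

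**Figure D1:**
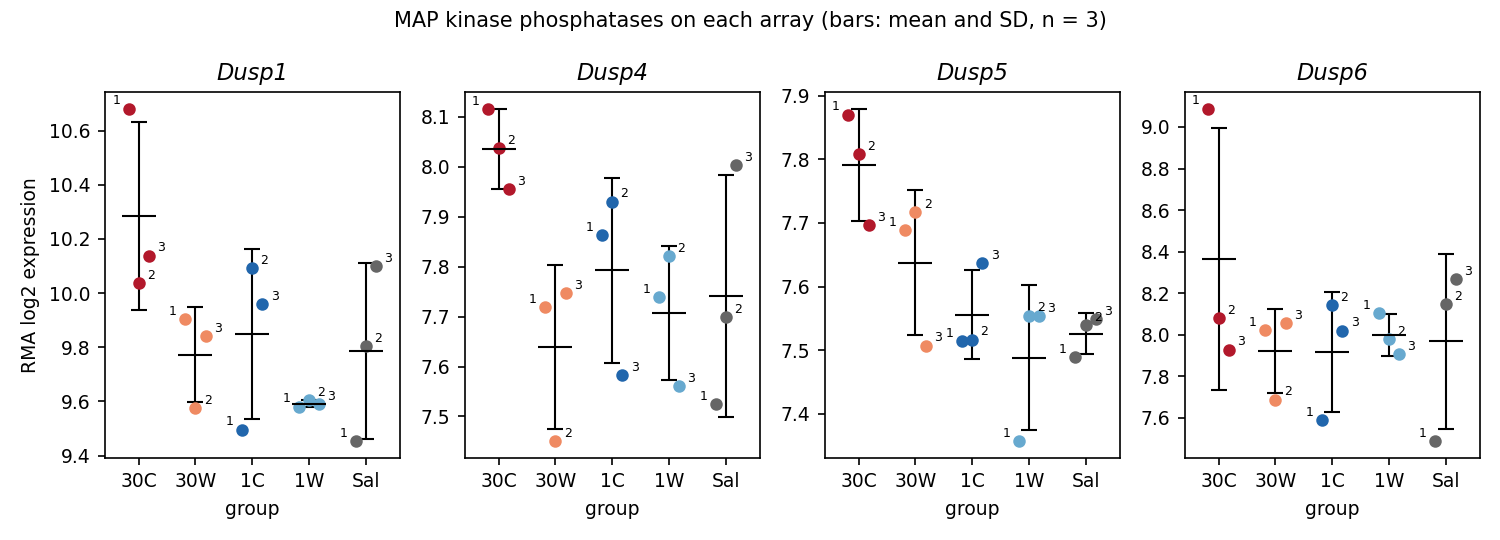
RMA log2 expression (vertical axis, a separate scale for each gene) of the 4 phosphatases on each array of the 5 groups (horizontal axis). Points are arrays numbered by replicate and bars give the mean and SD of 3 arrays. 30C replicate 1 was the highest array for all 4 genes, at 10.68 for Dusp1 and 9.09 for Dusp6, and the 30C points of Dusp4 lay above those of 30W, 1C and 1W.

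The genes differed in how much they varied between arrays. Over the 15 arrays Dusp6 spanned a 3.03-fold range, Dusp1 a 2.34-fold range, Dusp4 a 1.59-fold range and Dusp5 a 1.43-fold range. Ranked by SD within groups among all genes tested, Dusp6 was at percentile 98.9, Dusp1 at percentile 97.3, Dusp4 at percentile 91.4 and Dusp5 at percentile 52.1. The highest value of each of the 4 genes came from the same array, 30C replicate 1, and the lowest came from Sal replicate 1 for Dusp1 and Dusp6, from 30W replicate 2 for Dusp4 and from 1W replicate 1 for Dusp5.

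The extinction test after 30 days of withdrawal was addressed by 30C against 30W. Mean log2 expression of Dusp1 was higher by 0.51 (SE 0.19, 1.43-fold) and that of Dusp4 by 0.40 (SE 0.12, 1.32-fold). Dusp6 was higher by 0.44 (SE 0.27, 1.36-fold) and Dusp5 by 0.15 (SE 0.07, 1.11-fold). Higher here describes the means, since no member passed limma's test after Benjamini-Hochberg adjustment over the 11778 genes, with adjusted p = 0.999 for each of the 4. No gene passed in this comparison (0% of genes), and 463 genes (3.93%) had an unadjusted limma p under 0.05. Those included Dusp4 (unadjusted p = 0.00665), Dusp1 (unadjusted p = 0.0181) and Dusp5 (unadjusted p = 0.0484), but not Dusp6 (unadjusted p = 0.12). The 95% intervals of the log2 difference were 0.10 to 0.92 for Dusp1, 0.13 to 0.66 for Dusp4, 0.00 to 0.31 for Dusp5 and -0.13 to 1.02 for Dusp6. All 30C arrays lay above all 30W arrays for 2 of the 4 members, Dusp1 and Dusp4, against 4.51% of all genes. Without 30C replicate 1 the difference of Dusp6 was 0.08 and that of Dusp1 was 0.31, while Dusp4 kept 0.36. Without 30W replicate 3 that of Dusp5 was 0.09. The arrays of all 4 members were apart without 30C replicate 3, which held the lowest 30C value of Dusp4, Dusp5 and Dusp6. With fewer arrays such separation is easier, and its share over all genes was not computed.

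After 1 day of withdrawal, 1C against 1W gave smaller differences. They were 0.26 (SE 0.19) for Dusp1, 0.09 (SE 0.12) for Dusp4, 0.07 (SE 0.07) for Dusp5 and -0.08 (SE 0.27) for Dusp6, each with adjusted p = 1 in limma. With 1 array left out, Dusp1 ran from 0.14 (without 1C replicate 2) to 0.43 (without 1C replicate 1) and Dusp4 from 0.01 (without 1W replicate 3) to 0.19 (without 1C replicate 3). Dusp5 ran from 0.00 (without 1W replicate 1) to 0.10 (without 1W replicate 2), and Dusp6 from -0.19 (without 1C replicate 2) to 0.08 (without 1C replicate 1). For Dusp1 the 1C arrays stood 0.50 and 0.37 above the 1W mean in replicates 2 and 3 and at -0.10 from it in replicate 1. No gene passed over all genes, 474 (4.02%) had an unadjusted limma p under 0.05, and none of these was a member. No member had all 1C arrays above all 1W arrays, against 3.57% of all genes.

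The size of the test's effect was compared between the withdrawal lengths by the interaction, the 30-day difference minus the 1-day difference. It was 0.25 for Dusp1, 0.31 for Dusp4, 0.09 for Dusp5 and 0.52 (SE 0.38) for Dusp6, with adjusted p = 0.999 in limma for each, so a different response at 30 days and at 1 day was not shown. With 1 array left out it ran from 0.06 to 0.38 for Dusp1 and from 0.16 to 0.74 for Dusp6, lowest without 30C replicate 1 in both, from 0.21 (without 1C replicate 3) to 0.39 for Dusp4, and from 0.02 (without 30W replicate 3) to 0.15 for Dusp5. Across all genes 0 passed and 357 (3.03%) had an unadjusted p under 0.05. Averaged over both withdrawal lengths, tested minus untested arrays gave 0.38 for Dusp1, 0.24 for Dusp4, 0.11 for Dusp5 and 0.18 for Dusp6, with no member past the threshold. The unadjusted limma p-values were 0.0131, 0.0161 and 0.0449 for Dusp1, Dusp4 and Dusp5, among 571 genes (4.85%) under 0.05, and 0.353 for Dusp6, which averaged 0.00 without 30C replicate 1 and 0.29 without 30C replicate 3.

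Withdrawal length was compared within the tested and the untested rats. In 30C against 1C, Dusp5 was 0.24 higher (SE 0.07, unadjusted p = 0.00528, adjusted p = 0.748 in limma). Dusp1 was 0.44 higher (unadjusted p = 0.0389), Dusp4 0.24 and Dusp6 0.45. Without 30C replicate 1, Dusp6 differed by 0.09 and Dusp1 by 0.24, and without 1C replicate 3 Dusp4 differed by 0.14. All 30C arrays lay above all 1C arrays for 2 of the 4 members, Dusp4 and Dusp5, against 3.82% of all genes. Of all genes 0 passed, and 646 (5.48%) had an unadjusted p under 0.05, with Dusp1 and Dusp5 among them.

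Between the untested groups, 30W against 1W, Dusp5 was 0.15 higher (adjusted p = 0.495 in limma) and Dusp1 0.18 higher, while Dusp4 differed by -0.07 and Dusp6 by -0.08. With 1 array left out Dusp5 ran from 0.08 (without 1W replicate 1) to 0.21 and Dusp1 from 0.12 (without 30W replicate 1) to 0.28 (without 30W replicate 2), and without 30W replicate 2 Dusp4 was at 0.03 and Dusp6 at 0.04. None of the members had all 30W arrays above all 1W arrays, against 5.53% of all genes. None was among the 1188 genes (10.1%) with an unadjusted p under 0.05, and 0 genes passed. Averaged over the test, 30 days minus 1 day gave 0.19 for Dusp5 (SE 0.05, unadjusted p = 0.00193, adjusted p = 0.236), 0.31 for Dusp1 (unadjusted p = 0.0387, adjusted p = 0.356), 0.09 for Dusp4 and 0.19 for Dusp6, by limma. Without 30C replicate 1 this difference was 0.01 for Dusp6 and 0.21 for Dusp1, and without 30C replicate 3 it was 0.30 for Dusp6. For Dusp4 it was 0.04 without 1C replicate 3 and 0.13 without 30W replicate 2, while Dusp5 stayed between 0.16 and 0.22 with any 1 array left out. In that contrast 1 gene of 11778 passed (0.00849%), which was no phosphatase, and 1531 (13%) had an unadjusted p under 0.05, a background against which 2 of the 4 members are read.

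In the comparisons with the saline rats, the 95% interval of the difference lay above 0 for 3 members in 30C and included 0 for all 4 in 30W, 1C and 1W. In 30C against Sal, Dusp1 was 0.50 higher (unadjusted p = 0.0205), Dusp4 0.29 (unadjusted p = 0.033), Dusp6 0.40 (unadjusted p = 0.16) and Dusp5 0.27 (SE 0.07, unadjusted p = 0.0023), with adjusted p-values of 0.696 to 1 in limma. Dusp5 was the 1 member of 4 whose 30C arrays all lay above the Sal arrays, against 4.3% of all genes, and 596 genes (5.06%) had an unadjusted p under 0.05. For Dusp6 the difference was 0.04 without 30C replicate 1 and 0.62 without 30C replicate 3, for Dusp1 it was 0.30 without 30C replicate 1, and for Dusp4 it was 0.19 without Sal replicate 1. Without Sal replicate 3, the highest Sal array for all 4 members, 3 members had all 30C arrays above those of Sal. Without 30C replicate 2 or 3 it was 2 members. The share of all genes was not computed for these smaller sets, in which separation is easier. Members differed from Sal by -0.10 to 0.11 in 30W, by -0.05 to 0.06 in 1C and by -0.19 to 0.03 in 1W. None was among the genes with an unadjusted limma p under 0.05 in those comparisons, which were 7.6%, 3.43% and 4.87% of all genes, and 0 genes passed in any of the 4 comparisons with Sal. The comparisons with a common group share its arrays and are not independent of one another. A moderated F test over the 5 groups gave adjusted p = 0.687 for Dusp1, 0.707 for Dusp4, 0.559 for Dusp5 and 0.94 for Dusp6 in limma.

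**Figure D2:**
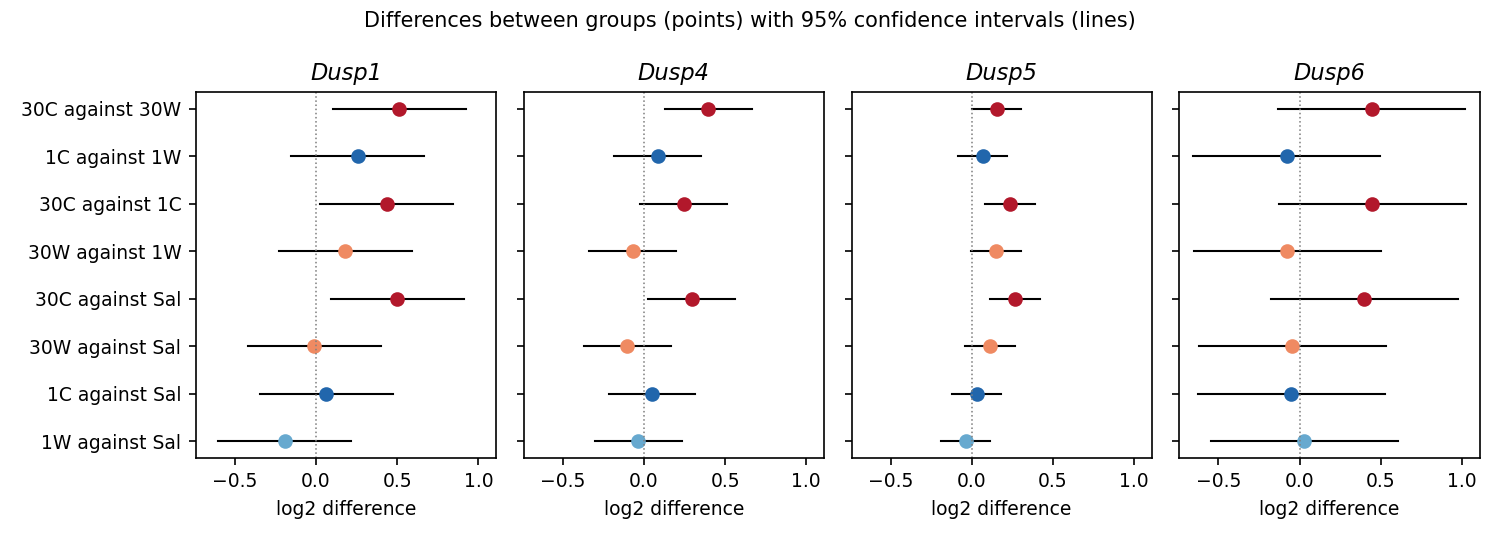
Log2 differences between groups (horizontal axis) for the 8 comparisons (rows), with 95% confidence intervals from limma as lines. The 3 comparisons with 30C on top lie to the right of 0 in all 4 genes, from 0.15 for Dusp5 in 30C against 30W to 0.51 for Dusp1, and the intervals of Dusp6 all include 0.

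The array with the highest Dusp6 value also had the highest level of cortical neuron markers. The tissue label was checked first by the percentile of striatal genes among each array's probe sets, over all 15 arrays. These were Drd1 (86.7 to 93), Drd2 (97.2 to 98.7), Ppp1r1b (98.6 to 99.4), Penk (99.4 to 99.8) and Tac1 (83.2 to 89.9). The log2 values of all these striatal genes were lowest in 30C replicate 1, the array with the highest value of each member. Slc17a7, the vesicular glutamate transporter of cortical projection neurons, read 12.16 in 30C replicate 1, its highest array, and 7.16 in Sal replicate 1, its lowest. A cortical score, the mean deviation of 10 tested markers of the 18 listed from their means over the arrays, was 1.07, -0.04 and -0.77 on the 30C arrays, against 0.21, -0.07 and 0.04 on the 30W arrays. It ran from -0.46 to 0.40 in 1C, from -0.54 to 0.17 in 1W and from -1.40 to 0.78 in Sal, so the groups overlapped, and 5 of the 10 markers had a higher mean in 30C than in 30W. The score of 19 tested medium spiny neuron markers of 22 listed was -0.43 to 0.13 in 30C and -0.04 to 0.08 in 30W. Its lowest value, -0.43, was that of 30C replicate 1, and 2 of the 19 had a higher mean in 30C. Of the 10 marker lists, the oligodendrocyte list had scores that did not overlap between these groups, -0.14 to -0.05 in 30C, against -0.04 to 0.01 in 30W, and 1 of its 13 tested markers had a higher mean in 30C. The same score was -0.07 to -0.06 in 1C, against -0.02 to 0.22 in 1W, and -0.03 to 0.14 in Sal. The endothelial and mural score was -0.19 (replicate 1) to 0.02 in 30C, against -0.05 to 0.09 in 30W, with 1 of 16 tested markers higher in 30C. In tissue RNA, more cells of a type and more RNA per cell cannot be told apart.

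Over the 15 arrays Dusp6 correlated with the cortical score at Pearson r = 0.82 (Spearman rho = 0.89), at r = 0.70 without the arrays at both ends of the score, and at r = 0.90 within groups. Dusp1 gave r = 0.62 (rho = 0.51) and r = 0.25 without those 2 arrays, Dusp4 r = 0.50 (rho = 0.43) and 0.16 without them, and Dusp5 r = 0.25 (rho = 0.11). These are descriptions over arrays that share their groups and their dissections. With the score as a covariate in limma, 30C against 30W was 0.50 (SE 0.11) for Dusp1, 0.39 for Dusp4, 0.15 for Dusp5 and 0.43 (SE 0.12) for Dusp6, with adjusted p-values of 0.491, 0.6, 0.982 and 0.746. The mean score itself was 0.09 in 30C and 0.06 in 30W, so this covariate had little difference between the groups to adjust for, and the part of cortical tissue in the member values was not tested further. With the oligodendrocyte score the correlations over the 15 arrays were r = -0.59 for Dusp1 (rho = -0.73), -0.35 for Dusp4 (rho = -0.56), -0.57 for Dusp5 (rho = -0.48) and -0.24 for Dusp6 (rho = -0.20), and its part in the results was not tested.

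**Figure D3:**
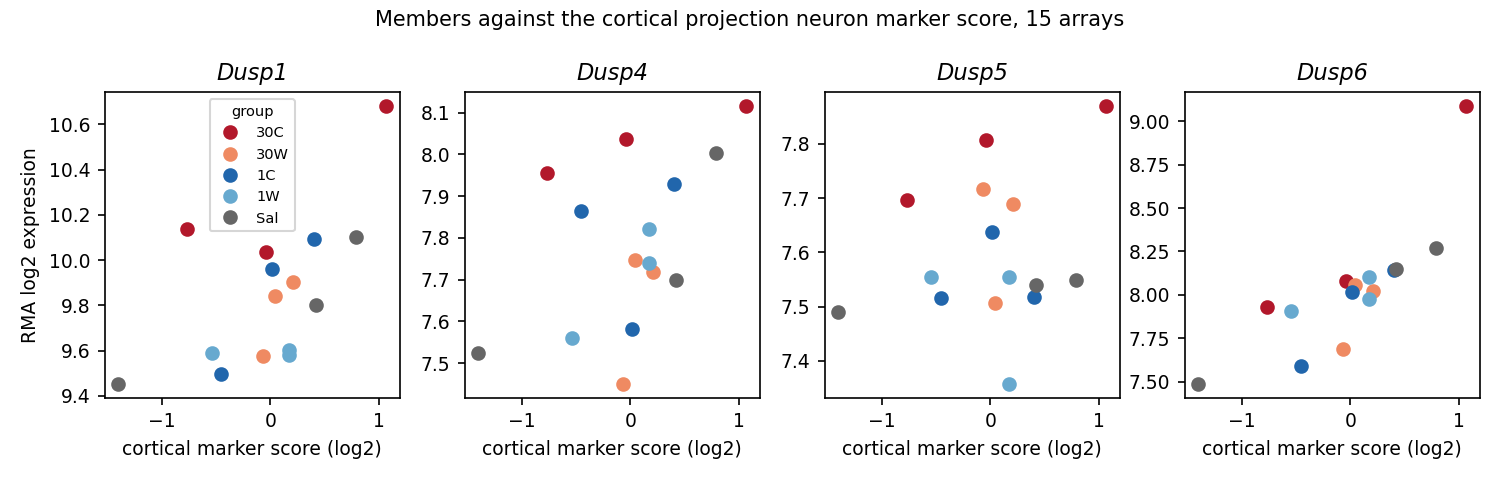
RMA log2 expression of each phosphatase (vertical axis) against the cortical marker score of the array (horizontal axis, log2), 1 point per array, coloured by group. Dusp6 runs along the score from 7.49 at -1.40 to 9.09 at 1.07, while the 30C arrays of Dusp4 and Dusp5 lie high at every score.

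The members did not all move together from array to array. Dusp1 and Dusp6 correlated at r = 0.86 over the 15 arrays (rho = 0.68) and at 0.70 without 30C replicate 1. Dusp1 and Dusp4 gave r = 0.73 (rho = 0.73), Dusp1 and Dusp5 0.65 (rho = 0.54), and Dusp4 and Dusp6 0.64 (rho = 0.57). Without 30C replicate 1 these r values were 0.64, 0.44 and 0.51. Dusp5 had the lowest values, 0.44 with Dusp6 (rho = 0.11) and 0.35 with Dusp4 (rho = 0.29), which were -0.01 and 0.13 without 30C replicate 1. The points share their groups and tissue samples, and these values describe the arrays without a test.

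The genes whose values over the 15 arrays were most like each member were taken by Pearson r. For Dusp1 they were Fos (0.94), the synaptic immediate early gene Arc (0.94) and Junb (0.92), and for Dusp4 they were the AP-1 gene Fosl2 (0.89), the orphan nuclear receptor gene Nr4a3 (0.88) and Egr4 (0.86). For Dusp5 they were the ubiquitin ligase gene Siah2 (0.86), Vsig8 (0.82) and the Wnt ligand gene Wnt3a (0.79). For Dusp6 they were Rnf39 (0.94), the Notch target gene Hes1 (0.93) and Prkaa2, a catalytic subunit gene of AMP-activated kinase (0.92). None of the genes named for Dusp5 or for Dusp6 was an immediate early gene on the list used here. Without 30C replicate 1 these 12 values lay between 0.77 and 0.91. Picked as the highest of all genes tested, such values are high by selection, and they were not tested. In 30C against 30W the Dusp5 genes Siah2, Vsig8 and Wnt3a differed by 0.03, -0.003 and 0.10.

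The rest of the classical MAP kinase phosphatase family was measured too, which gave 10 genes with the 4 members. Of the nuclear inducible group, Dusp2 averaged 7.40 ± 0.07 in 30C and 7.38 ± 0.10 in 30W (SD, n = 3 each), a difference of 0.02. Of the cytosolic ERK phosphatases, Dusp7 differed by -0.02, and Dusp9 read 6.55, 6.69 and 6.61 on the 30C arrays, against 6.92, 6.95 and 6.73 on the 30W arrays. For Dusp9, 1 of the 10 family genes, the 30C arrays thus all lay below the 30W arrays, as for 456 of the 11778 genes tested. The difference was -0.25 (SE 0.07, unadjusted p = 0.005, adjusted p = 0.999 in limma), opposite in sign to the members. It went with a high 30W mean of 6.86, while Dusp9 averaged 6.62 in 30C, 6.56 in 1C, 6.65 in 1W and 6.56 in Sal. Against Sal, Dusp9 differed by 0.30 in 30W (unadjusted p = 0.00126, adjusted p = 0.356 in limma) and by 0.05 in 30C. A fall of Dusp9 with the test was therefore not shown. The phosphatases of JNK and p38, Dusp8, Dusp10 and Dusp16, differed by 0.01, 0.09 and 0.02. None of the 10 passed the adjusted threshold in any comparison.

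**Figure D4:**
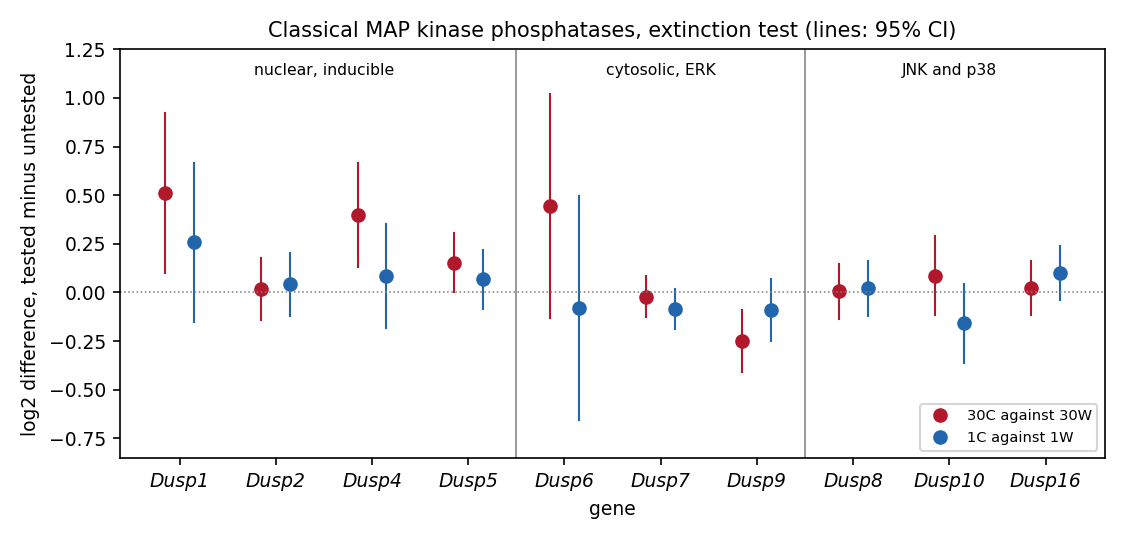
Log2 difference between rats with and without the extinction test (vertical axis) for the 10 classical MAP kinase phosphatases (horizontal axis), at 30 days (red) and at 1 day (blue) of withdrawal, with 95% confidence intervals. Dusp1, Dusp4 and Dusp6 have the highest 30-day values, 0.51, 0.40 and 0.44, Dusp9 the lowest at -0.25, and the other six lie between -0.02 and 0.15.

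The kinases that these enzymes act on, and their upstream activators, differed little between 30C and 30W. Of 25 listed genes of the ERK cascade 19 were tested, 0 passed and the median log2 difference was 0.01, against 0.00 over all genes, with Rasgrf1, a calcium-responsive Ras activator, at 0.06, the adaptor Shc1 at -0.10 and Rasgrp2 at -0.20. Of 19 genes of the JNK and p38 cascades 18 were tested, 0 passed and the median was -0.02, with differences from -0.05 to 0.05. The smallest p-values there belonged to the scaffold genes Mapk8ip1 (-0.04) and Mapk8ip3 (-0.03) and to the p38 kinase kinase gene Map2k6 (-0.04). Of 17 other dual-specificity phosphatases 12 were tested, 0 passed and the median was -0.01, with Ssh3 at 0.12, Dusp26 at 0.11 and Dusp14 at 0.18.

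Other feedback inhibitors of ERK signalling and the genes downstream of ERK were read in the same way. Of 12 other inhibitors, all tested, 0 passed and 8 were positive, with a median of 0.06, and the receptor signalling inhibitors Spry4, Spred3 and Spry3 differed by 0.24 (SE 0.09), 0.17 and 0.18. Of 16 ERK effectors 13 were tested and 0 passed, with the ETS factor genes Etv5 at 0.29 (SE 0.11) and Etv1 at 0.11 and the ternary complex factor gene Elk3 at -0.13. Of 30 listed immediate early genes 28 were tested, 0 passed and 25 had a positive difference, with a median of 0.24, where 52.4% of all genes were positive. The highest-ranked were Nfil3 at 0.55 (adjusted p = 0.0761), Fosl2 at 0.58 (adjusted p = 0.454) and Egr4 at 0.55 (adjusted p = 0.609), by limma. The list was chosen with earlier results of these data known, and Nfil3 had the smallest p of all genes tested in 30C against 30W. Its counts therefore describe the listed genes and do not test them as a set. In 1C against 1W 24 of the 28 were positive with a median of 0.12, where 47.1% of all genes were positive. In 30W against 1W 19 were, with a median of 0.07, where 39.7% of all genes were positive. Against Sal, 8 of the 28 were positive in 1W with a median of -0.06, where 57.7% of all genes were. In 1C against Sal 20 were, with a median of 0.05, where 54.5% of all genes were. Both differences from 1W thus used a group in which most of these genes averaged below Sal.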

How the data were processed

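Nucleus accumbens RNA from 15 samples was measured on Affymetrix rat arrays. The deposited log2 values were made by the authors with RMA (version not stated), per the submitters' processing notes. The labels name a labelling kit for 3' arrays, and scanner files were not used here. Of 28826 probe sets 15209 had 1 gene symbol, and each gene was represented by its probe set with the highest mean. A gene was tested if it exceeded the array's 30th percentile at least 3 times, which held for 11778. Array medians lay between 6.885 and 6.966, and the number of arrays limits the precision.

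The 5 groups were fitted together in R 4.3.3 with limma 3.58.1, using lmFit and eBayes (residual degrees of freedom 10, prior 3.44). Two-sided p-values were adjusted over all genes of a comparison by Benjamini-Hochberg, with a threshold of 0.05. The p-values measure only the spread between these samples, which may be technical. The code was tested on simulated data. The members and gene lists were chosen with earlier results of these data known. The text names the members, the other classical MAP kinase phosphatases, the 3 genes most correlated with each member, and from each pathway list the 3 with the smallest p in 30C against 30W. Alternatives changed the threshold, the filter, the probe set, the normalization, the weighting and choice of arrays, the variance model and the terms of the model (replicate block, cortical score), or left out 1 array in turn. Replicate numbers were not used to pair the samples in the main fit. Sequences and gene positions are from RefSeq tables of GRCr8.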

Additional observations from a re-analysis of the deposited data

How the results depend on the processing

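Across 27 settings, 15 of which left out 1 array, 1162 of 1188 member differences kept their direction, 26 reversed and 0 passed the adjusted threshold. Many of these differences could not change, so the count overstates how far direction was tried. Each member had 1 probe set, so changing the filter, probe set, threshold or variance model left its differences as they were. So did the balanced replicate block, fitting only the arrays compared, and leaving out an array of a group not compared. All 4 members stayed positive in 30C against 30W, 30C against 1C and 30C against Sal under every setting. For 30C against 30W the range with 1 array left out was 0.31 to 0.64 for Dusp1, 0.30 to 0.45 for Dusp4, 0.09 to 0.20 for Dusp5 and 0.08 to 0.66 for Dusp6.

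The reversals lay in differences near 0. With further quantile normalization Dusp1 in 30W against Sal was 0.00204, and with array weights 0.00138, while array weights gave 0.016 for Dusp4 and -0.066 for Dusp6 in 1W against Sal. With 1 array left out, Dusp1 ran from -0.18 to 0.15 in 30W against Sal and from -0.10 to 0.24 in 1C against Sal. Dusp4 ran from -0.14 to 0.026 in 30W against 1W, -0.21 to 0.028 in 30W against Sal, -0.058 to 0.18 in 1C against Sal and -0.14 to 0.10 in 1W against Sal. Dusp5 ran from -0.0100 to 0.051 in 1C against Sal and -0.070 to 0.028 in 1W against Sal. Dusp6 ran from -0.19 to 0.083 in 1C against 1W, -0.14 to 0.041 in 30W against 1W, -0.29 to 0.10 in 30W against Sal, -0.29 to 0.11 in 1C against Sal and -0.21 to 0.18 in 1W against Sal.

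Members whose arrays all lay above numbered 2 to 4 in 30C against 30W, 1 to 3 in 30C against Sal, and 0 to 1 in 30W against 1W, 1C against 1W, 30W against Sal and 1W against Sal with 1 array left out, and 1 in 30W against 1W after quantile normalization. Separation is easier with an array left out, and the share of all genes was not computed for those settings. Genes past the threshold for averaged withdrawal numbered 2 with the filter at the 50th percentile, 4 with quantile normalization, 2 with median centring, 6 with array weights, 5 at a threshold of 0.1, 0 with only the arrays compared, and 0 to 3 with 1 array left out. In 30C against 30W 1 gene passed with array weights, with the cortical covariate and at a threshold of 0.1. In 30C against 1C 2 passed with array weights and 1 with the covariate, in 30W against 1W 3 passed with array weights, and with the covariate 3 passed in the averaged test and 1 in the F test. With 1 array left out these counts were 0 to 1 in 30C against 30W, 0 to 2 in 30C against 1C and the F test, and 0 to 1 in 30W against 1W, 1C against 1W and 1C against Sal. The cause was not tested. With 3 arrays a group, intervals as wide as -0.13 to 1.02 for Dusp6 in 30C against 30W leave both no difference and a doubling within reach.

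Deviations of arrays with the same replicate number (30 pairs) correlated at r from -0.63 to 0.51, median -0.01. Those with different numbers (60 pairs) gave r from -0.51 to 0.60, median -0.01. Of 15 arrays, 6 correlated best with their own number. Whether arrays of the same number shared a day or a batch cannot be told from these values. With the replicate block the difference of Dusp4 in 30C against 30W was 0.40 (SE 0.13, adjusted p = 0.999 in limma), and 1 gene passed for averaged withdrawal.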
